A study of Homo sapiens with 9 samples.

Results

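The anoctamins are a family of membrane proteins, and 7 of their genes are described here over 9 RNA sequencing libraries: ANO1, ANO4, ANO5, ANO6, ANO8, ANO9 and ANO10. They were found by matching Ensembl identifiers to these symbols, which gave 7 of the 60448 rows of the deposited count table. ANO1 was singled out for its own counts in these libraries, where it was high in 1 group, and it is set beside its paralogs. Its values are therefore a description and carry no p-value. The family's other 3 genes, ANO2, ANO3 and ANO7, are given beside them so that all 10 are accounted for.

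The libraries came from cells kept in DMEM and labelled Huh7, the name of a human liver carcinoma line. The groups were the OPA1 knock-down sets N_28 and N_30 and a control, with 3 libraries each. OPA1 fuses the inner membranes of mitochondria. Knock-down was by lentivirus. The control libraries carry the same treatment text, and the labels state neither what virus they received nor what N_28 and N_30 stand for. No label tells whether the 3 libraries of a group are separate cultures. The p-values therefore reflect spread between libraries that may be only technical. Totals were 16476389 to 22863328 counts per library. OPA1 averaged 55.6 ± 2.25 CPM (counts scaled to the library's size) in N_28, 64.5 ± 1.30 in N_30 and 88.7 ± 5.28 in control (SD, n = 3 each), and no library of either knock-down reached a control library.

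The liver label was checked against 12 hepatocyte markers, and 3 of them had a mean of at least 1 CPM. Albumin (ALB) had 0 to 10 counts per library and APOB had 0 in all 9 libraries. These markers go against the liver label, and the cells are described here only as labelled Huh7. The summed level of the 12 markers was 6.76 to 8.21 CPM in N_28, 13.8 to 19.1 CPM in N_30 and 12.4 to 15.6 CPM in control. The N_28 libraries were thus the lowest of the 9. Of the 5 markers tested, 3 fell in N_28 by edgeR's test, where 5.75% of all genes tested fell. The part of this in the anoctamin results was not tested. Of 14 markers of blood, endothelium, fibroblasts and interstitial cells, 5 had no counts in any library, among them KIT, which marks the gut's interstitial cells together with ANO1. Their sum, most of it the collagen COL1A1, was 41.8 to 77.8 CPM in N_28, 109 to 181 CPM in N_30 and 64.2 to 94.0 CPM in control. Of the 3 of these markers that were tested, 1 rose and 0 fell in N_28, where 4.49% of all genes tested rose and 5.75% fell. The endothelial adhesion gene PECAM1 rose (log2 fold change 0.81, edgeR adjusted p = 0.0346), and COL1A1 did not pass (-0.49, adjusted p = 0.227). DESeq2, a second test, called 0 of these 3 markers in N_28. The marker calls were not checked with libraries left out. The part of these markers in the anoctamin results was not tested. In bulk RNA, fewer cells of a type and less RNA per cell cannot be told apart.

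Anoctamins, also called TMEM16 proteins, work as dimers in which each subunit has its own pore or groove opened by calcium. Some are chloride channels, which let chloride leave or enter the cell when calcium rises. Others are scramblases, which let phospholipids cross from one leaflet of a membrane to the other. ANO1 is the chloride channel of secretory epithelia, smooth muscle and the pacemaker cells of the gut, and pathologists stain for it, under the name DOG1, in gastrointestinal stromal tumours. Its gene lies in a stretch of chromosome 11 that is often amplified in squamous cell carcinomas.

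In control libraries the family was led by intracellular and scramblase members, with ANO1 next. Levels between genes were compared as RPKM, which is CPM divided by the kilobases of exon. ANO6, the scramblase that exposes phosphatidylserine on activated platelets, stood at 12.98 ± 0.773 RPKM in control (SD, n = 3). ANO10, an endoplasmic reticulum scramblase mutated in a recessive cerebellar ataxia, stood at 7.06 ± 0.382 RPKM. ANO8, which tethers the endoplasmic reticulum to the plasma membrane, was at 6.67 ± 1.39 RPKM. The ANO10 and ANO8 libraries overlapped, so their order is not set. The distance between their means rests on the exon model. Divided by the longest transcript in place of all exons, ANO10 stood at 11.6 RPKM and ANO8 at 7.19 RPKM in control. ANO1 followed at 1.24 ± 0.0817 RPKM, and its control libraries lay apart from those of both neighbours in the order.

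The remaining anoctamins were low in control. ANO7, first known from prostate, averaged 0.706 ± 0.176 RPKM, and ANO5, mutated in a limb-girdle muscular dystrophy, 0.319 ± 0.0592 RPKM. ANO9 averaged 0.117 ± 0.0391 RPKM and ANO3, a gene of the brain linked to dystonia, 0.0858 ± 0.00900 RPKM, with overlapping libraries. ANO4 had at most 1 count and ANO2, the chloride channel of olfactory neurons, at most 2 counts in any library. Both stayed under a floor of 3 counts, which equals 0.131 to 0.181 CPM depending on the library. They were not detectable at this depth and were not tested. The floor covers counting error only.

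**Figure D1:**
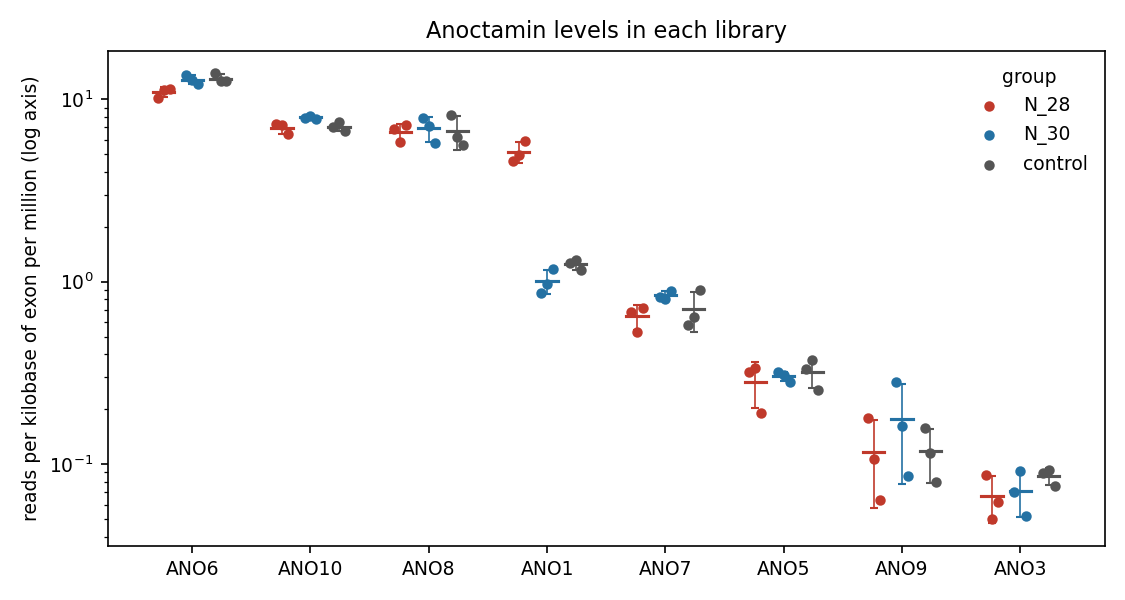
RPKM (log axis) of the 8 anoctamins above the expression filter, in N_28, N_30 and control libraries; points are libraries, horizontal lines means and bars SD over 3 libraries. ANO1 averages 5.16 in N_28, 1.002 in N_30 and 1.24 in control, while the 3 groups of ANO8 share one range.

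ANO1 was the member with the widest range over the groups. ANO1 (ENSG00000131620, chromosome 11, 70078302 to 70189528, plus strand in GENCODE 29, build GRCh38) had 571, 545 and 818 counts in N_28, 87, 116 and 158 counts in N_30, and 155 counts in each of the 3 control libraries. On the scaled libraries this was 27.5, 29.95 and 35.7 CPM in N_28, 5.24, 5.84 and 7.035 CPM in N_30, and 7.58, 7.92 and 6.95 CPM in control. All N_28 libraries were above all others, and the N_30 and control libraries overlapped through N_30 library 3. The mean was 31.1 ± 4.22 CPM in N_28 against 7.48 ± 0.492 CPM in control (SD, n = 3 each), a ratio of 4.15 and a log2 fold change of 2.06 (SE 0.12). In N_30 the mean was 6.04 ± 0.916 CPM and the log2 fold change against control was -0.30 (SE 0.14). As ANO1 was chosen on these counts, the SE values given for it describe spread and are no test. N_30 against N_28 gave -2.35 (SE 0.13). With each library left out in turn the N_28 fold change ran from 1.94 to 2.14, which is a description only.

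With ANO1 high in N_28, the make-up of the family differed while its sum overlapped between groups. Over all 10 genes the family summed to 30.8 ± 1.07 RPKM in N_28, 30.0 ± 1.77 RPKM in N_30 and 29.2 ± 2.16 RPKM in control, and the ranges of the 3 groups overlapped. ANO1 made up 15.2, 16.5 and 18.5% of that sum in N_28, 2.74, 3.20 and 4.15% in N_30, and 3.99, 4.58 and 4.23% in control. Its share in every N_28 library was above that in every other library. Without ANO1, the other 9 genes summed to 25.6 ± 0.446 RPKM in N_28, 29.03 ± 1.92 RPKM in N_30 and 27.9 ± 2.12 RPKM in control. All N_28 libraries lay below the rest on that sum, at 25.2 to 26.1 RPKM, against 27.0 to 30.8 RPKM in N_30 and 26.2 to 30.3 RPKM in control. ANO1 stayed next after ANO8 in every group. It was at 5.16 ± 0.700 RPKM in N_28, overlapping ANO8 at 6.62 ± 0.717 RPKM. In N_30, at 1.002 ± 0.152 RPKM, its libraries overlapped those of ANO7 at 0.840 ± 0.0457 RPKM.

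**Figure D2:**
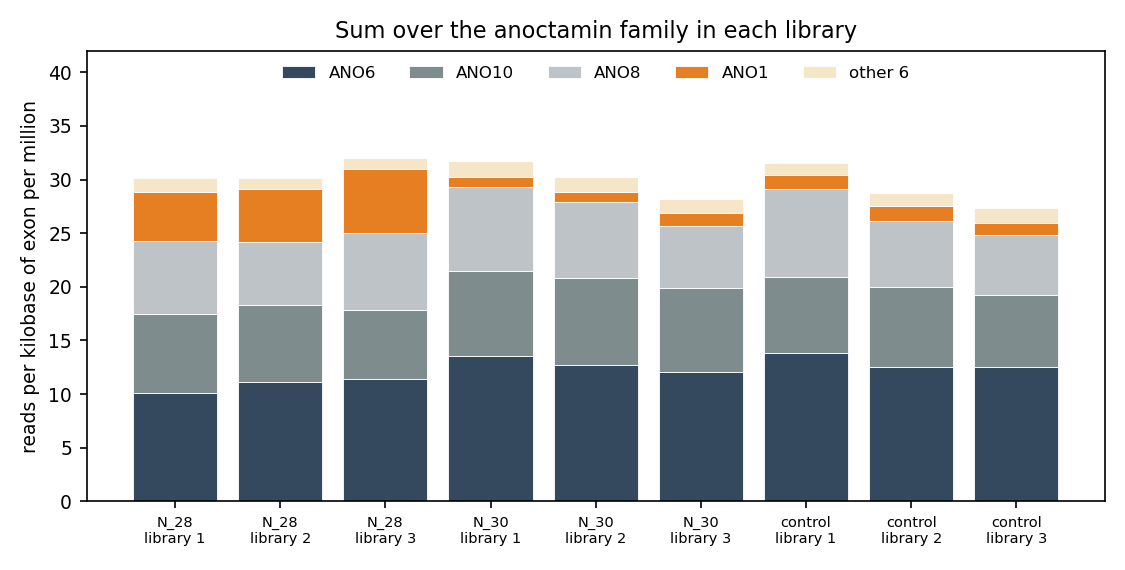
RPKM summed over the anoctamin family in each of the 9 libraries, stacked by gene, with the 6 lowest genes together. The ANO1 segment is 15.2 to 18.5% of the bar in N_28, 2.74 to 4.15% in N_30 and 3.99 to 4.58% in control, with bars of nearly equal height.

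Of the 7 listed genes, 6 passed the filter on low counts and entered edgeR's quasi-likelihood test, which was fitted over 15019 genes. Calls are at an adjusted p (Benjamini-Hochberg) under 0.05. ANO1 is left out of the counts of calls, since it was chosen on these counts, which leaves 5 tested paralogs. In N_28 against control, ANO6 was lower and 4 were not called, where 10.2% of all genes tested were called, 4.49% higher and 5.75% lower. Nothing is read from the paralogs' count against that share. The comparisons of N_28 and N_30 with control share the 3 control libraries. With ANO1 among them, the median log2 fold change of the 6 tested members was -0.02 in N_28 and 0.01 in N_30, where the medians over all genes tested were -0.0015 and -0.00067.

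ANO6 (ENSG00000177119, chromosome 12, 45215987 to 45440404, plus strand) was lower in N_28. It had 83.5, 91.95 and 94.1 CPM in N_28, 111, 105 and 99.3 CPM in N_30, and 114, 103 and 103 CPM in control. Every N_28 library lay below every library of the other groups, while N_30 and control overlapped. The log2 fold change was -0.25 in N_28 (SE 0.07, adjusted p = 0.0311) and -0.02 in N_30 (SE 0.07, adjusted p = 0.941) (both edgeR, Benjamini-Hochberg). In N_30 against N_28 it was 0.23 (SE 0.07, adjusted p = 0.0331, same test). The N_28 call was lost without control replicate 1 (adjusted p = 0.112), without N_28 replicate 1 (adjusted p = 0.143) or without N_28 replicate 2 (adjusted p = 0.0756). The call between the knock-downs was lost without either of these N_28 libraries (adjusted p = 0.137 and 0.0752), N_30 replicate 1 (adjusted p = 0.119) or N_30 replicate 2 (adjusted p = 0.0823). The mean of ANO6 in N_28 was 0.841 times that in control, beside 4.15 times for ANO1.

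ANO10 (ENSG00000160746, chromosome 3, 43354859 to 43691594, minus strand) was highest in N_30 without passing the test. Its libraries read 38.5, 37.9 and 33.9 CPM in N_28, 41.8, 42.7 and 41.4 CPM in N_30, and 37.1, 39.45 and 35.4 CPM in control. All N_30 libraries were above all others, and N_28 and control overlapped. The log2 fold change against control was -0.02 in N_28 (SE 0.07, adjusted p = 0.890) and 0.17 in N_30 (SE 0.07, adjusted p = 0.362) (both edgeR, Benjamini-Hochberg). N_30 against N_28 gave 0.19 (SE 0.07, adjusted p = 0.0716).

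ANO8 (ENSG00000074855, chromosome 19, 17323223 to 17334829, minus strand) had overlapping groups throughout. It stood at 34.15, 28.96 and 35.8 CPM in N_28, 39.3, 35.3 and 28.8 CPM in N_30, and 41.0, 30.9 and 27.8 CPM in control. The spread within control was thus as wide as the spread over all 9 libraries. The log2 fold change was -0.01 in N_28 (95% interval -0.31 to 0.30) and 0.05 in N_30 (95% interval -0.25 to 0.35).

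ANO5 (ENSG00000171714, chromosome 11, 21799934 to 22283357, plus strand) and ANO9 (ENSG00000185101, chromosome 11, 417933 to 442011, minus strand) had few counts. ANO5 had 50, 46 and 33 counts in N_28, 40, 46 and 48 in N_30, and 51, 55 and 43 in control, with overlapping groups. ANO9 had 23, 12 and 9 counts in N_28, 29, 20 and 12 in N_30, and 20, 14 and 11 in control. In each group ANO9 was highest in library 1 and lowest in library 3, and in each of the 3 replicate numbers it had more CPM in N_30 than in N_28 or control. Its log2 fold change in N_30 against control was 0.54 (edgeR adjusted p = 0.718). It did not pass with the replicate block either, and the groups overlapped. The 95% interval of the fold change on the log2 scale in N_28 was -0.69 to 0.31 for ANO5 and -1.05 to 1.01 for ANO9. In N_30 it was -0.57 to 0.42 for ANO5 and -0.44 to 1.52 for ANO9. These intervals hold the fold changes compatible with the counts and with the spread between libraries.

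ANO4 (ENSG00000151572, chromosome 12, 100717526 to 101128641, plus strand) had 1, 0 and 0 counts in N_28, 0 counts in every N_30 library, and 1, 1 and 0 counts in control. No fold change is given for it. Outside the list, ANO7 had 81, 55 and 94 counts in N_28, 78, 91 and 114 in N_30, and 67, 71 and 115 in control. ANO3 had 7 to 14 counts in N_28, 9 to 14 in N_30 and 13 to 14 in control. Neither was called in any of the 3 comparisons.

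**Figure D3:**
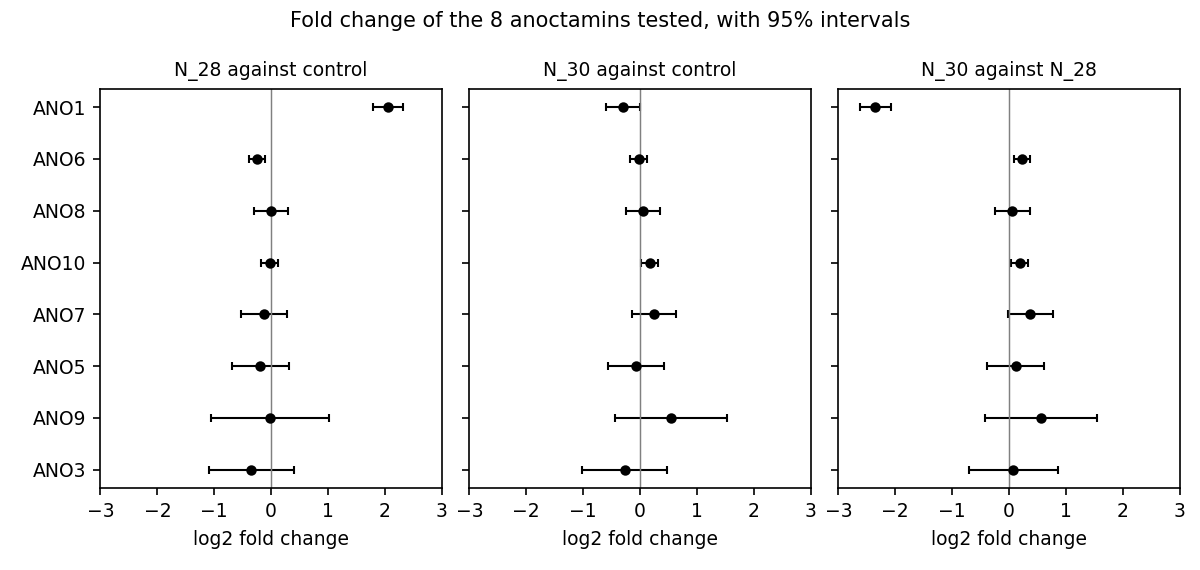
Log2 fold changes of the 8 anoctamins tested, with 95% intervals from the quasi-likelihood fit of 9 libraries, for N_28 against control, N_30 against control and N_30 against N_28. ANO1 lies at 2.06, -0.30 and -2.35, and the other genes lie between -0.35 and 0.56. The intervals are narrowest for ANO6 and ANO10 and widest for the low genes ANO9 and ANO3. As ANO1 was chosen on these counts, its intervals are no test.

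In N_30 against control, edgeR's test called 0 of the 5 tested paralogs, where 0.866% of all genes tested were called, 0.459% higher and 0.406% lower. DESeq2 also called 0, and 1 of them, ANO10, had an unadjusted p under 0.05, as did 1716 of the 15019 genes tested. The count of edgeR's calls over all genes was 130. It was 58 without N_30 replicate 2, 78 without control replicate 3, 71 without N_30 replicate 1 and 424 under the replicate block, which still called 0 paralogs. In N_30 against N_28, ANO6 was higher and 4 paralogs were not called, where 18.3% of all genes tested were called, 9.38% higher and 8.96% lower.

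Sequence shared between the genes was counted. Of all stretches of 50 bases in GENCODE transcripts of ANO1, 0 occurred in transcripts of any other gene on the same strand, and for all 10 genes 0 other anoctamins shared one. On the opposite strand, 553 of the 6249 stretches of ANO1 lie in ANO1-AS1, an antisense gene with 0 counts in all 9 libraries. ANO10 overlaps ABHD5 by 170 exonic bases and ANO8 overlaps DDA1 by 79, both on the opposite strand. No source used here says whether the counting used strand, so reads in these overlaps cannot be told apart.

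Of 13 neighbours in the chromosome band 11q13, 10 were tested, and in N_28 against control 2 rose and 0 fell, where 4.49% of all genes tested rose and 5.75% fell. With 10 genes, nothing is read from that count. Cyclin D1 (CCND1), which drives entry into S phase, averaged 651 ± 48.5 CPM in N_28 and 481 ± 26.1 CPM in control (n = 3 each), a log2 fold change of 0.44 (adjusted p = 0.00173, edgeR with Benjamini-Hochberg adjustment). LTO1, an adaptor for the insertion of iron-sulphur clusters, rose by 0.29 on the same scale (adjusted p = 0.00984). Its call was lost without N_28 replicate 1 (adjusted p = 0.0522). FADD, an adaptor of death receptors and the nearest tested gene on the other side, had a log2 fold change of 0.02. Cortactin (CTTN), an actin regulator, had 0.06, and the sterol enzyme DHCR7 had -0.15. None of these 3 passed the test. The plot of neighbours shows ANO1 apart from the genes on both sides in N_28. As ANO1 was chosen for its high counts in that group, nothing is read from this distance.

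In N_30 against control, edgeR called 0 of these 10 neighbours and DESeq2 0, where edgeR called 0.866% of all genes tested. An unadjusted p under 0.05 was found for 1 neighbour and for 1716 of the 15019 genes tested. Between the knock-downs, CCND1 (-0.43), LTO1 (-0.30) and MYEOV (-0.30) were lower in N_30 and the synaptic scaffold SHANK2 (1.78) was higher, on the log2 scale, where 18.3% of all genes tested were called. SHANK2 was low, with 26, 42 and 27 counts in N_30 and 5, 10 and 14 counts in N_28. Its call was lost under 3 of 15 alternatives and that of MYEOV under 7 of 16.

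**Figure D4:**
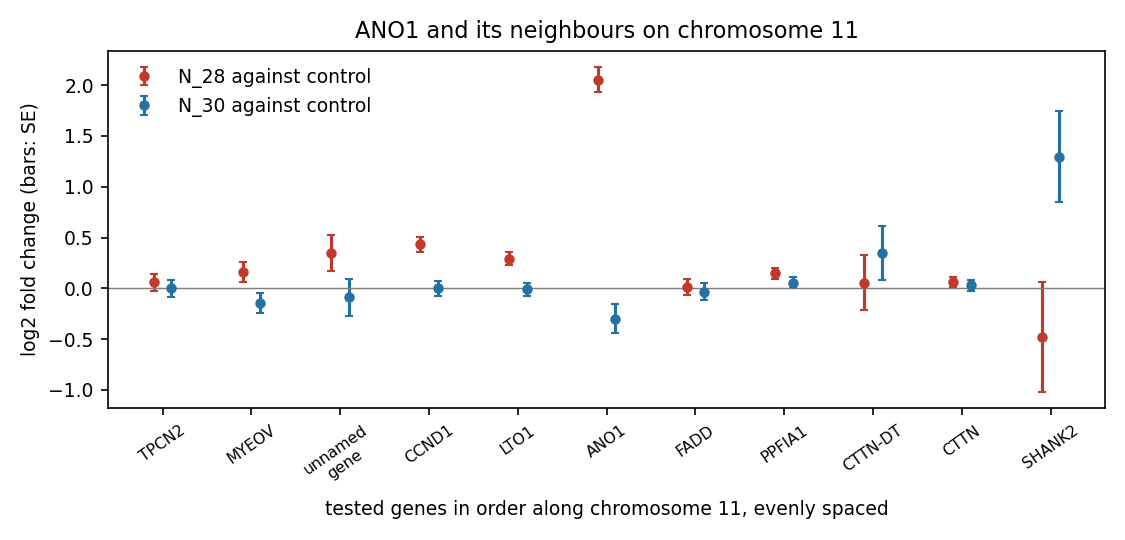
Log2 fold change (points, with SE bars) of ANO1 and the 5 nearest tested genes on each side along chromosome 11, evenly spaced by order, for N_28 against control and N_30 against control. ANO1 lies at 2.06 in N_28, against 0.44 for CCND1 and 0.29 for LTO1 on one side and 0.02 for FADD on the other.

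The TMC and TMEM63 proteins are the anoctamins' closest relatives in fold, and include channels of hearing and of osmotic stretch. Of 11 genes, 5 were tested, and in N_28 TMC7 rose (log2 fold change 0.54, adjusted p = 0.0488) and 4 did not pass, where 10.2% of all genes tested were called. TMC7 averaged 5.19 ± 0.234 CPM in N_28, 3.32 ± 0.644 CPM in N_30 and 3.58 ± 0.359 CPM in control (n = 3 each). Its N_28 call was lost under 9 of 16 alternatives. The stretch channel genes TMEM63B (-0.04) and TMEM63A (-0.01) were close to control in N_28 and did not pass. In N_30 against control 0 of the 5 were called by edgeR or DESeq2, where edgeR called 0.866% of all genes tested. An unadjusted p under 0.05 was found for 0 of the 5 and for 1716 of the 15019 genes tested. TMC7 was lower in N_30 than in N_28 (-0.66, adjusted p = 0.0128).

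Among 33 other chloride channel genes, 18 were tested, and in N_28 1 rose, 1 fell and 16 did not pass, where 10.2% of all genes tested were called. CLIC1, a chloride intracellular channel protein, averaged 452 ± 6.17 CPM in N_28, 352 ± 19.8 CPM in N_30 and 376 ± 9.46 CPM in control, a log2 fold change of 0.27 in N_28 (adjusted p = 0.00667). CLCN7, the chloride-proton exchanger of lysosomes, averaged 122 ± 6.86 CPM in N_28, 176 ± 11.4 CPM in N_30 and 154 ± 10.8 CPM in control, a log2 fold change of -0.33 in N_28 (adjusted p = 0.00725). Both were also called between the knock-downs, at -0.36 for CLIC1 and 0.52 for CLCN7 in N_30 against N_28, and kept their calls under all 16 alternatives. TTYH3 (0.20) and CLIC4 (-0.06) were the highest genes that did not pass in N_28. In N_30 against control edgeR and DESeq2 called 0 of 18, where edgeR called 0.866% of all genes tested. An unadjusted p under 0.05 was found for 3 of the 18 and for 1716 of the 15019 genes tested. The median log2 fold change of the 18 was 0.04 in N_28 and 0.04 in N_30.

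Other scramblases, and the flippases, which pump phospholipids back to the inner leaflet, had a share of calls near that of all genes. Of 25 genes 16 were tested, and in N_28 2 fell and 0 rose, where 10.2% of all genes tested were called. ATP10D, a flippase gene, was among those that fell (log2 fold change -1.22, edgeR adjusted p = 0.0265), at low levels, with 0.711 ± 0.236 CPM in N_28, 1.71 ± 0.514 CPM in N_30 and 1.69 ± 0.355 CPM in control. Without control replicate 2, without N_28 replicate 1 or without N_28 replicate 2, 0 genes of the list were called lower, ATP10D included. VMP1 (-0.19) and ATP8B1 (0.02) did not pass in N_28. Between the knock-downs, ATP10D (1.23) was higher and PLSCR4 (-1.86) and the endoplasmic reticulum scramblase TMEM41B (-0.25) were lower in N_30, where 18.3% of all genes tested were called. PLSCR4 was low, with 12, 12 and 6 counts in N_30 and 37, 31 and 49 counts in N_28. TMEM41B lost its call under 4 of 16 alternatives and ATP10D under 2. In N_30 against control edgeR and DESeq2 called 0 of 16, where edgeR called 0.866% of all genes tested. An unadjusted p under 0.05 was found for 2 of the 16 and for 1716 of the 15019 genes tested.

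Genes of calcium release and entry, the signal that opens ANO1, were also counted. Of 23 genes 22 were tested, and in N_28 1 rose and 4 fell, where 4.49% of all genes tested rose and 5.75% fell. F2RL1, a protease-activated receptor that raises calcium through phospholipase C, had 37.4, 35.1 and 32.4 CPM in N_28, 19.4, 24.65 and 21.4 CPM in N_30, and 17.1, 17.2 and 15.1 CPM in control. No library of F2RL1 overlapped between any of the 3 groups. Its log2 fold change was 1.09 in N_28 (adjusted p = 1.43e-05) and 0.41 in N_30 (adjusted p = 0.0826), by edgeR with Benjamini-Hochberg adjustment. With the replicate number as a block the N_30 value was 0.41 and passed (adjusted p = 0.0169), as it did by DESeq2 (adjusted p = 0.0221). The N_30 value passed under only 3 of 16 alternatives, over which the adjusted p ran from 0.00422 to 0.346.

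P2RY2, a receptor for extracellular ATP that opens ANO1 through calcium in epithelia, averaged 1.87 ± 0.380 CPM in N_28, 6.67 ± 0.543 CPM in N_30 and 4.94 ± 0.529 CPM in control. Its log2 fold change was -1.40 in N_28 (adjusted p = 0.000155, edgeR with Benjamini-Hochberg adjustment), 0.43 in N_30 (adjusted p = 0.255) and 1.82 in N_30 against N_28. The inositol trisphosphate receptor ITPR1 (-0.48), the store-operated channel subunit ORAI2 (-0.22) and the phospholipase PLCB4 (-0.36) also fell in N_28. ITPR1 lost its call under 7 of 16 alternatives, ORAI2 under 5 and PLCB4 under 3. The 4 genes lower in N_28 were 1 without control replicate 1, without N_28 replicate 1 or without N_28 replicate 3, and 2 without control replicate 3 or without N_28 replicate 2. The calcium pump ATP2A2 (0.13) and the calmodulin gene CALM2 (0.13) did not pass in N_28.

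Between the knock-downs, 6 of the 22 calcium genes were higher and 2 lower in N_30, the lower ones being F2RL1 (-0.68) and the calmodulin gene CALM3 (-0.36). Of all genes tested, 9.38% were higher and 8.96% lower. P2RY2 (1.82), ITPR1 (0.73), ORAI2 (0.30) and PLCB4 (0.28) were among the higher ones. The other higher genes were the calcium channel subunit ORAI3 (0.56) and the calcium pump ATP2B1 (0.28). ORAI3 lost its call under 11 of 16 alternatives, PLCB4, whose libraries overlapped, under 7, ATP2B1 under 4 and CALM3 under 3. The 6 were 3 without N_28 replicate 1, without N_28 replicate 3 or without N_30 replicate 1, and the 2 were 1 without N_28 replicate 3, N_30 replicate 1 or N_30 replicate 2. In N_30 against control edgeR called 0 of 22, DESeq2 1 and the replicate block 1. Over all genes tested, edgeR called 0.866%, DESeq2 called 267 genes and the block 424. An unadjusted p under 0.05 was found for 3 of the 22 and for 1716 of the 15019 genes tested. The median log2 fold change of the 22 was -0.01 in N_28 and 0.03 in N_30.

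Of 10 genes whose proteins are reported to bind or modify ANO1, 9 were tested. Against control, edgeR called 0 in N_28 and 0 in N_30, where 10.2% and 0.866% of all genes tested were called. DESeq2 called 1 in N_28 and 0 in N_30. By edgeR's unadjusted p, 4 of the 9 were under 0.05 in N_28 and 1 in N_30. Of the 15019 genes tested, 3589 were under it in N_28 and 1716 in N_30. The epidermal growth factor receptor EGFR, which forms a complex with ANO1 in carcinoma cells, averaged 340 ± 28.7 CPM in N_28, 313 ± 16.8 CPM in N_30 and 292 ± 6.59 CPM in control. Its log2 fold change in N_28 was 0.22 and missed the threshold (adjusted p = 0.0517, edgeR with Benjamini-Hochberg adjustment). It passed under 7 of 16 alternatives, over which the adjusted p ran from 0.0101 with the replicate block to 0.219 without N_28 replicate 2. Moesin (MSN), which links membrane proteins to actin, had 0.09 in N_28. The calcium-dependent kinase CAMK2D was higher in N_30 than in N_28 (0.21, adjusted p = 0.0385) and lost that call under 7 of 16 alternatives.

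The genes most like ANO1 were sought among those of at least 5 CPM by Pearson's correlation of log2 CPM over the 9 libraries, as a description. These were COCH (0.991), a secreted protein of the inner ear, ZNF526 (0.988), the glycosyltransferase EOGT (0.982), the ciliary kinase CILK1 (0.981) and the transcription factor TFAP2C (0.979). The 9 points share 3 groups, so a gene that is high in N_28 gives a high value. All 5 moved far less than ANO1, with log2 fold changes in N_28 of 0.38 for COCH, 0.26 for ZNF526, 0.50 for EOGT, 0.74 for CILK1 and 0.52 for TFAP2C. In N_30 the 5 ran from -0.15 to -0.06. Of the paralogs, ANO6 had -0.825 and ANO8 -0.108 by the same measure over the same libraries.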

How the data were processed

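The authors deposited raw read counts per human Ensembl gene in whole numbers for 60448 rows and 9 libraries of total RNA. No source used here gives the aligner, counter, annotation or strand setting. The build in the submitters' processing notes is mm8, of mouse, although the identifiers are human. Symbols were matched for 56434 rows in a name table and 434 in GENCODE release 29, and 3580 have none. Coordinates and exon lengths are those of GENCODE release 29 on GRCh38.

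Genes were filtered by edgeR's expression filter (minimum count 10), which left 15019. After TMM scaling, edgeR 4.0.16 under R 4.3.3 fitted its quasi-likelihood model to the 9 libraries, 1 term per group, leaving 6 residual degrees of freedom. SE and 95% intervals derive from the fold change and the F statistic. CPM use scaled library sizes, and RPKM divide them by the union of exons. DESeq2 1.42.0 was an alternative. The fit was tested on simulated data. Pairs of libraries within a group had a mean chi-square of 3.57 to 12.4 per gene, where sampling noise alone gives about 1, so none was counted as a copy of another.

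Same-numbered libraries of N_30 and control deviated together in all 3 pairs (correlations 0.122, 0.169 and 0.306). Pairs with N_28 ran from -0.0588 to 0.235, and libraries numbered 3 had the highest value in each comparison. Libraries of different numbers were not compared, so these values do not settle whether libraries were paired. The main fit has no term for the replicate number, and the replicate block was an alternative.

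The members and lists were chosen with earlier results of these data known. All anoctamins are named, from each other list up to 6 called members by lowest adjusted p and up to 2 of the highest that were not called, and the 5 genes most like ANO1. The values of 1 called member of the scramblase and flippase list are not reported here.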

Additional observations from a re-analysis of the deposited data

Results flagged for a closer look

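Set against each other, the knock-down sets differed in ANO1, which was chosen on these counts, and in ANO6. Of all genes tested, 18.3% were called in this comparison. ANO1 was lower in N_30 than in N_28, with a log2 fold change of -2.35 and library values that did not overlap, and as ANO1 was chosen on these counts no p-value is given. ANO6 was higher in N_30 than in N_28 by 0.23 on the log2 scale (edgeR, adjusted p = 0.0331), with every N_30 library above every N_28 library. ANO6 lost that call under 4 of 16 alternatives.

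Genes of the other lists also passed edgeR's test of N_30 against N_28, given here on the log2 scale. Of all genes tested, 9.38% were called higher and 8.96% lower, and nothing is read from the number named here. PLSCR4, SHANK2 and ATP10D rest on few counts. Lower in N_30 were PLSCR4 (-1.86), F2RL1 (-0.68), TMC7 (-0.66), CCND1 (-0.43), CLIC1 (-0.36), CALM3 (-0.36), MYEOV (-0.30), LTO1 (-0.30) and TMEM41B (-0.25). Higher in N_30 were P2RY2 (1.82), SHANK2 (1.78), ATP10D (1.23), ITPR1 (0.73), ORAI3 (0.56), CLCN7 (0.52), ORAI2 (0.30), PLCB4 (0.28), ATP2B1 (0.28) and CAMK2D (0.21). These calls were not equally stable: ORAI3 lost its call under 11 of 16 alternatives, PLCB4, CAMK2D and MYEOV under 7 each, ATP2B1 and TMEM41B under 4 each, CALM3 under 3, SHANK2 under 3 of 15, ATP10D under 2 and TMC7 under 1.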

How the results depend on the processing

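Under the 16 alternatives tried, ANO1 ran from 1.94 to 2.14 in N_28, from -0.43 to -0.21 in N_30 and from -2.48 to -2.24 between the knock-downs. As ANO1 was chosen on these same counts, these ranges describe it and are no evidence for a change. With each library left out in turn, 1 to 2 listed anoctamins, ANO1 counted, were called in N_28 and 1 to 2 between the knock-downs. ANO1 was chosen on these counts and was among them each time, so the lower value of 1 shows nothing of stability. The other call was that of ANO6, which was lost wherever the value was 1. Over all genes, leaving out each library gave 967 to 1712 calls in N_28, the lowest without N_28 replicate 1, and 58 to 180 in N_30. The 130 calls in N_30 were 523 with no filter on low counts, 424 with the replicate block and 267 by DESeq2, and the cause was not tested.

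Of 330 recomputed paralog fold changes, 20 turned their sign, none of them a call. Left out 1 at a time, the libraries gave in N_28 -0.33 to 0.039 for ANO5, -0.26 to 0.10 for ANO7, -0.12 to 0.17 for ANO8, -0.49 to 0.30 for ANO9 and -0.059 to 0.035 for ANO10. In N_30 they gave -0.22 to 0.046 for ANO5, -0.065 to 0.027 for ANO6 and -0.064 to 0.23 for ANO8. Between the knock-downs they gave -0.15 to 0.32 for ANO3, -0.11 to 0.25 for ANO5 and -0.044 to 0.17 for ANO8. With the replicate block ANO8 in N_28 was 0.0096, and ANO10 between the knock-downs passed (0.19, adjusted p = 0.0337), as it did with upper quartile scaling. The block changed no other anoctamin call. No label says whether equal numbers mark paired libraries. In N_28 the block gave 2301 calls against 1538. Levels per kilobase rested on the exon model, and with the longest transcript ANO10 in control was 11.6 against 7.06. Low counts limit ANO3, ANO5 and ANO9 to the wide intervals given.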
